A study of Capra hircus with 3 samples.

Results

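The 49 genes described here are the matrix metalloproteinases (MMPs), the ADAMs, the ADAMTS proteases and the tissue inhibitors of metalloproteinases (TIMPs) of the goat, followed through 3 stages of fetal dorsal skin. They are the rows of a table of 16739 genes whose symbol is MMP, ADAM, ADAMTS or TIMP followed only by a number: 18 ADAMTS, 17 MMP, 11 ADAM and 3 TIMP genes. The 3 single-cell libraries come from Northern Shaanxi White Cashmere Goat fetuses at embryonic day 60 (E60, 6849 cells), E90 (6931 cells) and E120 (6896 cells), with no treatment or genetic change named. Each stage is 1 library made from at least 2 fetuses whose cells were prepared separately and then pooled. At E60 and E90 whole back skin was digested with collagenase IV and pipetted apart, whereas at E120 hair follicles were picked with forceps after collagenase and then digested with TypLE Express. Stage, dissection and library cannot be told apart. With 1 library per stage there is no test between stages, and every interval given is an exact 95% interval for counting error only, Poisson for a level and binomial for a share of cells.

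MMPs are secreted or membrane-bound zinc proteases that are made as inactive precursors and together cleave most components of the extracellular matrix and basement membrane. ADAMs are membrane-anchored relatives, some of which release the outer part of growth factors and receptors from the cell surface, while ADAM11, ADAM22 and ADAM23 lack protease activity and act in cell adhesion. ADAMTS proteases are secreted and carry thrombospondin repeats, and different members process procollagens, cleave proteoglycans such as versican, or cleave cartilage oligomeric matrix protein. TIMPs bind the active site of MMPs and block them, and TIMP2 also takes part in the activation of the MMP2 precursor by membrane-type MMPs. In skin, these enzymes are known for their work in matrix turnover, vessel growth and the downgrowth of hair follicles into the dermis.

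The depth was 65049552 unique molecular identifiers (UMIs) for E60, 30277663 for E90 and 93403291 for the E120 library. The E90 library stood apart: its median cell had 3714 UMIs and 11.1% mitochondrial counts, against 8579 UMIs and 4.52% in the median E60 cell and 13064 UMIs and 5.26% in that of E120. Libraries shared 9 to 13 cell barcodes per pair. Levels are given as counts scaled to a total of 1000000 (CPM) of the summed UMIs of a library, class or cluster. As a limit for a count of 0, 3 counts were taken, which correspond to 0.0461 CPM at E60, 0.0991 at E90 and 0.0321 at E120. Among members and related genes, the lowest number of cells with a count in a library, other than 0, was 3. Whether genes in fewer cells of a library had been set to 0 before deposit was not tested. A library count of 0 may thus stand for fewer than 3 cells, and folds against it are nominal. A fold against a count of 0 is taken to 3 counts in the same cells and leaves out the counting error of the other side. Cells were clustered without using any of the 49 genes, and clusters were named from marker genes. The composition of the libraries differed: dermal-like cells numbered 5659 at E60, 502 at E90 and 212 at E120, and epithelial-like cells 3, 2047 and 6129. At E90, 3872 cells stayed in an unnamed cluster led by ACTG2 and mitochondrial genes, and another 388 were led by haemoglobin genes while still carrying epithelial markers at a summed 4966 CPM and dermal markers at 3146 CPM. The level in those haemoglobin-led cells is given below beside E90 levels as a point of reference. It is no floor of the library, since other E90 cells were below it for some genes. Of 35 clusters, 33 were over 90% from a single library, and such a cluster may stand for its library rather than for a cell type.

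Counts of some kind were present for 34 of the 49 genes in every library. Over all 49 genes, the highest whole-library level was at E60 for 18 genes, at E90 for 26 and at E120 for 5, namely MMP1, MMP3, MMP9, MMP28 and ADAM20. Summed by family, the 17 MMP genes were at 742 CPM at E60, 211 at E90 and 64.1 at E120, and the 18 ADAMTS genes at 649, 331 and 77.0 CPM. The 3 inhibitors summed to 994, 530 and 155 CPM. The sums of these families were thus highest at E60 and lowest at E120, whereas the sum of the 11 ADAM genes was highest at E90, at 119.5 CPM, against 81.4 at E60 and 47.1 at E120. Single genes made up most of some sums, which therefore do not describe the typical member. MMP2 gave 47320 of the 48293 MMP counts at E60, and MMP1 gave 4534 of 5988 at E120. ADAMTS1 gave 26165 of the 42228 ADAMTS counts at E60. In all, 15 members reached 20 CPM in a library or 50 CPM in a named class of at least 50 cells and are described singly. Of the other 34, 15 were under 1 CPM in every library, and none exceeded 17.4 CPM in any.

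**Figure D1:**
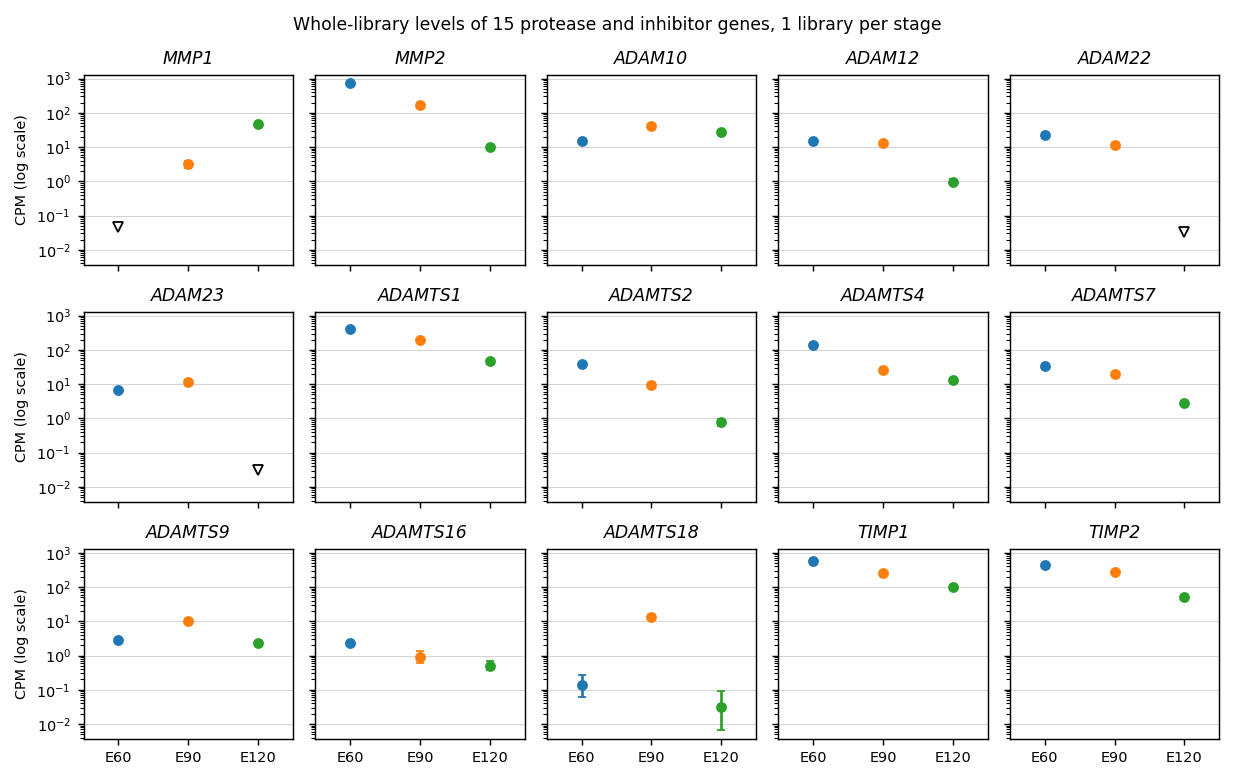
Whole-library level in CPM (log axis) of the 15 members described singly, by stage (a single library each), with bars for the 95% counting interval. A triangle marks a count of 0, drawn at the level of 3 counts. MMP2, TIMP1 and TIMP2 were lower at each later stage, while MMP1 was at 0 counts at E60 and at 48.5 CPM at E120.

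The question of how the set as a whole differed between stages was put first to the whole libraries. A gene entered a comparison when its mean over both libraries was at least 5 CPM, and it was called when the ratio of CPM + 1 was 2-fold or more. From E60 to E90, 21 of the 49 genes entered, of which 7 were higher (21.1% of all genes tested were) and 5 lower (7.36% of all genes). Their median log2 ratio was 0.72 beside 0.17 for all 7245 genes tested. From E90 to E120, 22 entered, with 1 higher (8.97% of all genes) and 16 lower (23.1% of all genes), and a median of -2.43 beside -0.24. From E60 to E120, 13 entered, with 1 higher (18.4% of all genes) and 9 lower (19.9% of all genes), and a median of -3.05 beside 0.05. Only 15, 8 and 7 of these genes reached 5 CPM on both sides of the 3 comparisons in turn, so the others entered through the library in which they were high, and the comparisons share libraries. In such sums, fewer cells of a type and less RNA per cell cannot be told apart. When libraries were scaled by the median of ratios in place of the total, the median log2 ratio of all genes moved from 0.17 to -0.28 for E60 to E90. The split of members then became 5 higher and 8 lower, without the share of all genes under that scaling beside it. The classes below carry the same enzymes in fewer kinds of cells.

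The gelatinase MMP2, which cleaves denatured collagen and collagen IV, had 47320 counts at E60, 5125 at E90 and 943 at E120. Its level was 727 CPM (interval 721 to 734) in the E60 library. At E90 it was 169 CPM (165 to 174), and the E120 library had 10.1 CPM (9.46 to 10.8). No 2 of these intervals overlapped, and the E120 level was 72.1-fold (67.6 to 76.9) below that of E60. Its highest levels were in mesenchymal cells. At E60 it was at 761 CPM in the dermal-like class and 921 CPM in the class like tendon or cartilage. The 6 dermal-like clusters of E60 ranged from 248 CPM, in the cluster led by TNNI1 and NT5C, to 1287 CPM, in the cluster led by SMOC2 and SERPINF1. At E120 the cluster led by FGF7, APOD and RSPO3, made of 205 cells with papilla markers at high level, held 234 CPM (208 to 262) and 32.0% of the library's MMP2 counts from 2.97% of its cells. The endothelial-like cells of E120 had 173 CPM, whereas the 6129 epithelial-like cells had 1.27 CPM.

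The other gelatinase, MMP9, had no counts at E60, 36 at E90 (1.19 CPM) and 135 at E120 (1.45 CPM). In a single E120 epithelial-like cluster, led by CNFN, KRT23 and SERPINB13, it was at 5.98 CPM (4.47 to 7.85), against 0.980 CPM in the rest of that library.

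That cluster also carried most of the collagenase MMP1, an enzyme that cuts intact fibrillar collagen. MMP1 had 0 counts among 6849 cells at E60, 94 counts at E90 (3.11 CPM, interval 2.51 to 3.80) and 4534 counts at E120 (48.5 CPM, 47.1 to 50.0). The E120 level was 15.6-fold (12.8 to 19.4) that of E90 and 1053-fold the limit of 3 counts at E60. MMP1 was the only member called higher at E120 in either whole-library comparison. Within E120, the 689 cells of the CNFN cluster had 414 CPM (401 to 428) and gave 79.4% of the library's MMP1 counts from 9.99% of its cells. A UMI of MMP1 was found in 58.9% of them, against 2.20% of mast-like and 6.06% of endothelial-like cells of the same library. Their median depths were 3618 and 6398 UMIs against about 12320 in the cluster, and how much of these shares is free RNA was not tested. The next cluster, led by the inner root sheath keratins KRT27, KRT71 and KRT25, had 34.1 CPM (30.4 to 38.2), and the cluster led by DCN and SHH 18.0 CPM (16.1 to 20.1). The first of these lies above the interval of every non-epithelial E120 cluster, whereas the other overlaps those of the mural-like and mast-like clusters, whose 2 and 3 counts allowed up to 22.5 and 23.8 CPM. The remaining 6 epithelial-like clusters ran from 1.66 to 11.2 CPM, below and above the papilla-led, endothelial-like, mural-like and mast-like clusters (5.42 to 9.31 CPM). Of the other collagenases, MMP8 was not analysed here and MMP13 had 0, 24 and 12 counts in the 3 libraries.

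**Figure D2:**
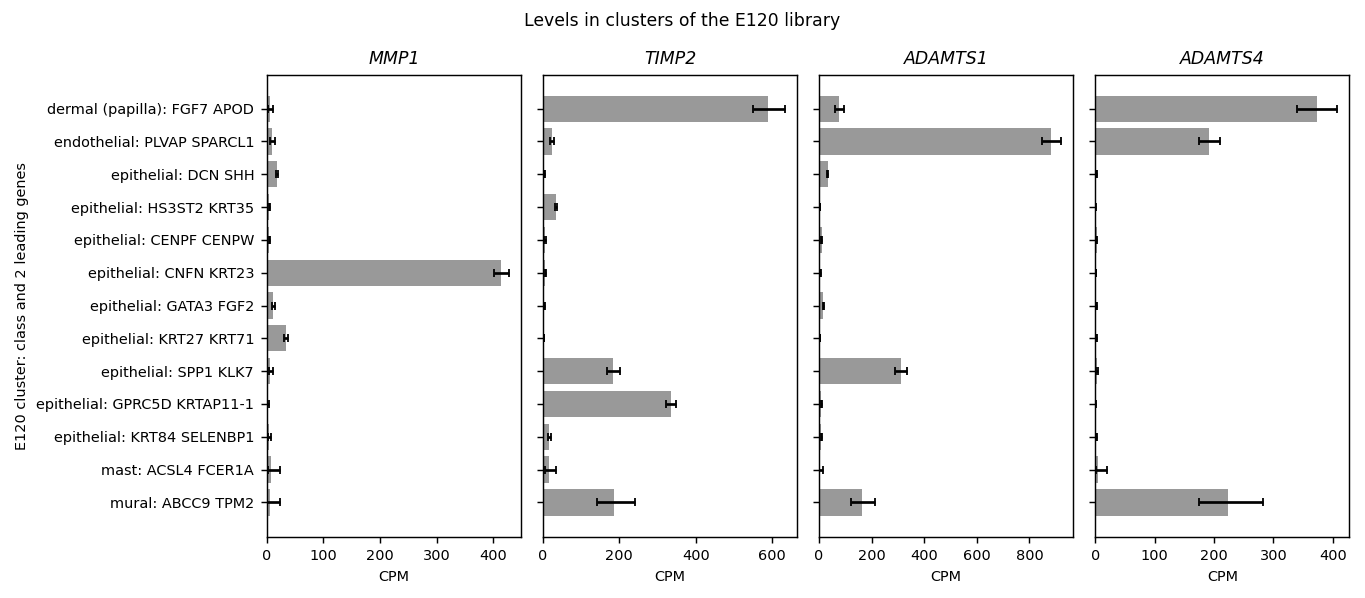
Level in CPM of MMP1, TIMP2, ADAMTS1 and ADAMTS4 in the 13 clusters of the E120 library, named by leading genes, with bars from 0 and the 95% counting interval. MMP1 is highest in the CNFN cluster (414 CPM) and ADAMTS1 in the endothelial-like cluster (884 CPM). TIMP2 and ADAMTS4 are both highest in the papilla-led cluster (590 and 373 CPM), and TIMP2 is also high in the GPRC5D cluster (336 CPM).

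The matrilysin MMP7, a small protease of epithelia, was highest at E90. It was at 0.876 CPM at E60, 14.0 CPM at E90 and 0.150 CPM at E120, so that E90 was 15.9-fold (12.1 to 21.4) above E60 and 93.2-fold (54.9 to 172) above E120. Within E90, 2 of the epithelial-like clusters carried it. The cluster led by KRT10, LYPD2 and KRT4 (525 cells) had 90.4 CPM (78.9 to 103) and that led by SPP1, EHF and PAEP (71 cells) had 92.0 CPM (63.7 to 129). The largest epithelial-like cluster of E90, led by KRT85 and LHX2 (1418 cells), had only 5.02 CPM, and the haemoglobin-led cells 21.5 CPM (14.9 to 30.0). The dermal-like cells of that library had 1.32 CPM, from 4 counts, and the unnamed cells 5.89 CPM. MMP7 was thus higher in 2 clusters than in the haemoglobin-led cells, and in the KRT85 and LHX2 cluster it was close to the unnamed cells.

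Of the membrane-type MMPs, MMP14, which activates the MMP2 precursor at the cell surface, was at 5.70, 10.1 and 1.55 CPM at E60, E90 and E120. MMP16, another membrane-type enzyme, was at 0.308, 9.38 and 0.535 CPM. Both had their highest E90 level in the dermal-like cluster led by BMP3 and SPON1, with 29.2 CPM (23.4 to 36.0) for MMP14 and 38.5 CPM (31.8 to 46.2) for MMP16, which held 40.9% of that library's MMP16 counts in 7.19% of its cells. The stromelysin MMP11, a gene known from stroma next to epithelium, was at 6.53 CPM at E60, 0.528 at E90 and 0.0535 at E120. At E60, 60.7% of its counts came from the largest dermal-like cluster, led by RCAN2 and CDC42EP3, at 12.5 CPM (11.01 to 14.1). The other MMPs, MMP3, MMP12, MMP13, MMP15, MMP17, MMP19, MMP20, MMP25, MMP27 and MMP28, did not exceed 1.19 CPM in any library.

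The proteoglycan-cleaving ADAMTS1 and ADAMTS4 were each highest at E60, and at E120 they were highest in different clusters. ADAMTS1 was at 402 CPM at E60, 200 at E90 and 47.2 at E120. At E60 it was widespread, with 322 to 516 CPM across the dermal-like clusters and 177 CPM in endothelial-like cells. At E90 the named classes of at least 50 cells and the haemoglobin-led cells lay between 191 and 211 CPM. No class of that library had an interval above that of the haemoglobin-led cells, although the KRT85 and LHX2 cluster did. That cluster had 238 CPM (226 to 250, against an upper limit of 213 in the haemoglobin-led cells). At E120 the endothelial-like cluster had 884 CPM (848 to 921), giving 51.6% of the library's ADAMTS1 counts from 4.99% of its cells, and the rest of the library 23.5 CPM. Among the epithelial-like clusters of E120 the median was 7.94 CPM, with 1 high cluster, led by SPP1, KLK7 and KRT17, at 312 CPM (290 to 334). The E60 to E90 call of ADAMTS1 rested on a log2 ratio of -1.01 and was lost with a pseudocount of 10 CPM, at -0.97, and without likely doublets, at -0.99.

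ADAMTS4 was at 142.5 CPM at E60, 25.6 at E90 and 13.1 at E120. At E60 its highest class was mural-like, at 408 CPM (380 to 437) against 140 CPM in dermal-like cells. At E120 it was found mainly in mesenchymal and vascular cells: the papilla-led cluster had 373 CPM (340 to 408) and 39.4% of the counts from 2.97% of cells, the mural-like cluster 224 CPM and the endothelial-like cluster 192 CPM. The 9 epithelial-like clusters of E120 all lay between 0.769 and 2.35 CPM. ADAMTS5, ADAMTS9, ADAMTS15 and ADAMTS20, which share the ability to cleave proteoglycans, had their highest whole-library level at E90, the first 3 with 9.94, 10.2 and 17.4 CPM. ADAMTS9 was highest in endothelial-like cells in each library, at 17.9, 53.8 and 47.3 CPM by stage, the last of these not beyond the 44.1 CPM of mural-like cells, whose interval overlaps. ADAMTS15 reached 46.6 CPM in the mural-like and 37.9 CPM in the dermal-like cells of E120, beside 0.204 CPM in the epithelial-like cells.

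ADAMTS2 and ADAMTS3 cut the amino-terminal propeptide from procollagen. ADAMTS2 was at 38.4, 9.64 and 0.771 CPM at the 3 stages, each below the one before, and the E120 level was 49.8-fold under that of E60. Its E60 levels followed the fibrous tissues, with 92.6 CPM (84.8 to 101) in the SMOC2 cluster, 75.0 CPM in the class like tendon or cartilage and 0 counts among the 82 cells with muscle and glial markers. ADAMTS3 was at 4.34 CPM at E60 and under 0.5 CPM later, and 25.4 CPM (19.6 to 32.4) in the 234 E60 cells led by COL2A1 and TNMD.

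ADAMTS7 and ADAMTS12 cleave cartilage oligomeric matrix protein. ADAMTS7 was at 34.5, 20.4 and 2.84 CPM at E60, E90 and E120, and at E120 the mural-like class had 80.9 CPM and the papilla-led dermal-like class 37.9 CPM beside 1.27 CPM in epithelial-like cells. ADAMTS12 was nearly missing from the dermal-like cells of E60, at 0.229 CPM, while mural-like cells of the same library had 31.7 CPM (24.2 to 40.7). In E120 it was at 46.4 CPM (35.4 to 59.8) in the papilla-led cluster and 41.7 CPM in mural-like cells. The papilla-led cluster gave only 15.35% of the library's 391 ADAMTS12 counts. The 9 epithelial-like clusters of E120 ran from 0.229 to 12.6 CPM.

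ADAMTS16 had most of its counts in mural-like cells, the smooth muscle cells and pericytes of vessels. Whole libraries had only 2.26, 0.925 and 0.503 CPM. At E60 the 202 mural-like cells had 53.0 CPM (43.2 to 64.3) and 69.4% of all its counts, from 2.95% of the cells. At E120 the 60 cells of the mural-like cluster had 93.3 CPM (62.9 to 133) and 63.8% of the counts, from 0.870% of the cells. In both libraries the rest of the cells lay under 1 CPM. ADAMTS18, in contrast, was almost limited to E90, with 9 counts at E60, 407 at E90 (13.4 CPM) and 3 at E120, and its E90 level in the dermal-like cells was 53.7 CPM (45.8 at the lower end) against 6.31 CPM in the haemoglobin-led cells.

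**Figure D3:**
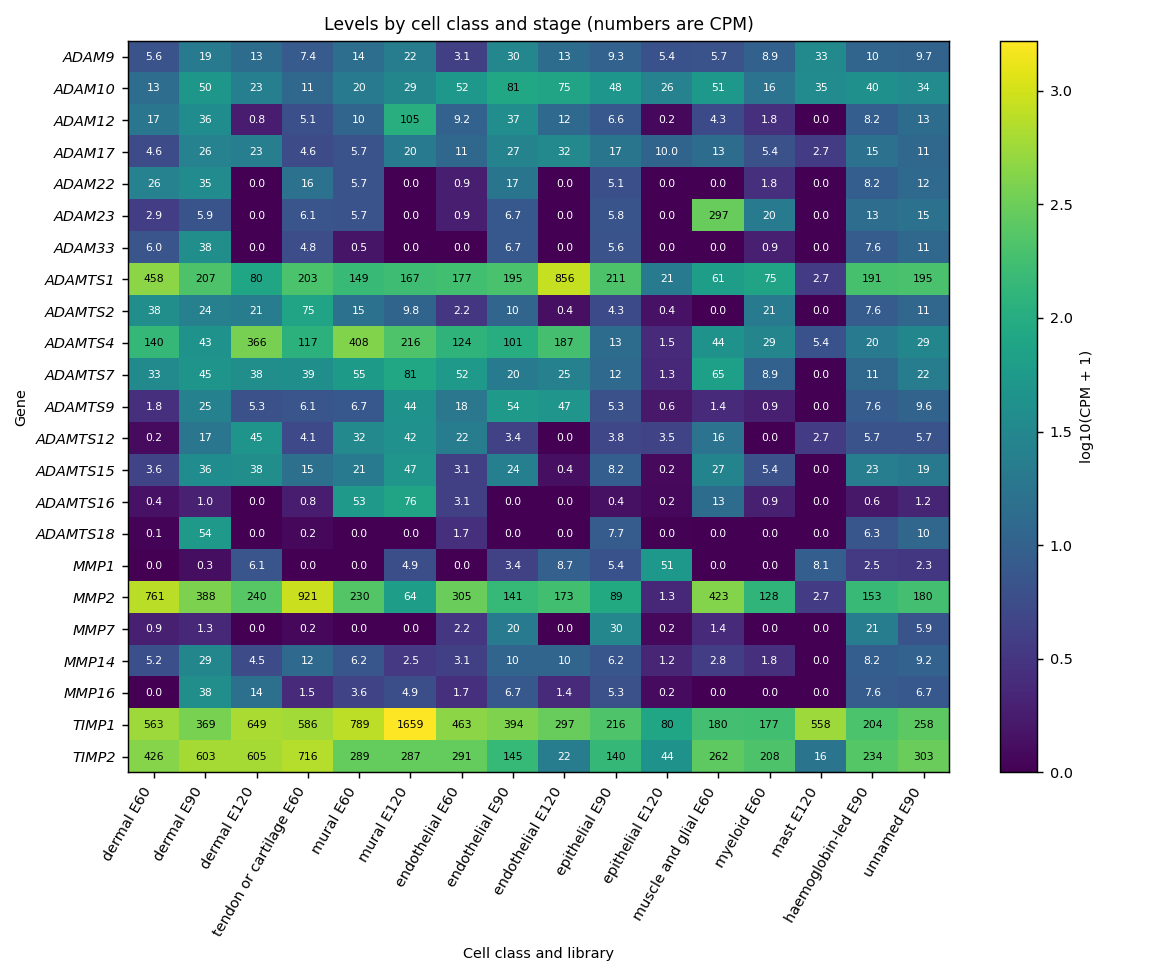
Level in CPM of 23 members (rows) in each named class and library with enough cells, and in the haemoglobin-led and unnamed cells of E90 (columns). The value is printed in each field, and shading is on a log scale. MMP2 and ADAMTS2 are high in dermal-like and tendon-like columns, ADAMTS16 in mural-like columns, MMP1 in the E120 epithelial-like column and ADAM23 in the E60 column of the cells with muscle and glial markers.

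ADAM10 and ADAM17 are the main sheddases, which release Notch ectodomains and growth factors of the EGF family among others. ADAM10 was at 14.99 CPM at E60, 42.1 at E90 and 27.6 at E120, and ADAM17 at 4.95, 14.99 and 10.8 CPM. Both were called higher at E90 than at E60, by 2.81-fold (2.58 to 3.06) for ADAM10, and neither was called from E90 to E120. The ADAM10 call was lost when libraries were scaled by the median of ratios, at a log2 ratio of 0.98. ADAM10 was spread over all classes, and its level in endothelial-like cells, 51.6, 80.8 and 75.4 CPM at the 3 stages, was the highest of any class, next to 51.1 CPM in the muscle and glial cluster of E60. ADAM9, another active ADAM, ended where it began, with 5.93 CPM at both E60 and E120 and 11.1 CPM between.

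ADAM12, known from fusing muscle and activated mesenchyme, was at 15.2, 13.1 and 0.964 CPM. In E120 most of its counts came from vascular cells. The mural-like cluster had 121 CPM (86.2 to 166) and 43.3% of the library's ADAM12 counts, and endothelial-like cells had 11.5 CPM and 35.6%, whereas the papilla-led dermal-like class had a single count. ADAM15 and ADAM19 did not exceed 3.63 and 2.01 CPM in any library, and in E120 the endothelial-like cluster had 15.1 CPM of ADAM15 and 22 of the 27 ADAM19 counts.

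ADAM22, ADAM23 and ADAM33 were at 0 counts in E120, the deepest library. A 0 there may stand for a gene found in fewer than 3 cells. ADAM22 was at 22.7 CPM (1477 counts) at E60 and 11.6 CPM (352 counts) at E90, ADAM23 at 6.63 and 11.5 CPM, and ADAM33 at 5.33 and 11.9 CPM. The E90 levels were 362-fold, 359-fold and 369-fold the limit of 3 counts at E120, in that order. Of 5944 genes at 10 CPM or more at E90, 15 (0.252%) had 0 counts at E120, and these 3 were among them, out of 18 members at that level. Of 5017 genes at 10 CPM or more at E60, 18 (0.359%) had 0 counts at E120, with ADAM22 as the only 1 of 10 members. The 3 genes were picked for their 0 counts and the cut of 10 CPM was not planned, so these shares are no test. The 212 dermal-like, 68 mural-like and 363 endothelial-like cells of E120 were thus also without a count of the 3. The part of cell composition and dissection in this was not tested. At E60, ADAM22 was mostly dermal, from 13.5 to 55.4 CPM over the 6 clusters, with the highest value in the cluster led by DKK1 and CXCL14 (50.9 to 60.3).

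ADAM23 had a different source at E60. The 82 cells of the cluster with skeletal muscle and glial markers together had 297 CPM (258 to 340) and gave 48.5% of its counts from 1.20% of the library's cells. When these cells were divided by whether they held more muscle or more glial marker UMIs, a division chosen after the values were seen, the 45 cells on the glial side had all 209 counts, or 554 CPM (481 to 634), and the 37 cells on the muscle side had 0 counts, which allows up to 9.17 CPM by the limit of 3 counts. ADAMTS7 was also unequal between them, with 114 CPM (82.4 to 153) on the glial side and 9.17 CPM on the muscle side. ADAM10 showed the same order, with 87.4 CPM (60.2 to 123) against 9.17 CPM, while ADAMTS20 had 7.95 CPM (1.64 to 23.2) against 24.5 CPM (10.6 to 48.2), whose intervals overlap. This muscle and glial class had 0 cells at E120. At E90, 66.8% of the ADAM23 counts were in the unnamed cluster, at 15.2 CPM. The haemoglobin-led cells of E90 had 13.3 CPM of ADAM23 and the dermal-like cells 5.93 CPM.

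Both well-measured inhibitors were lower at each later stage in the whole libraries. TIMP1 was at 556 CPM at E60, 256 at E90 and 103 at E120, and TIMP2 at 438, 274 and 51.9 CPM. The E120 levels were 5.38-fold and 8.44-fold below those of E60. TIMP4 had 4, 3 and 0 counts, and TIMP3 was not analysed here. The fold of TIMP1 between E90 and E120 depended on how cells were weighed: the log2 ratio of -1.30 became -0.70 when every cell was weighted the same.

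Within classes the 2 inhibitors parted. TIMP1 was highest in mural-like cells, at 789 CPM (750 to 830) at E60 and 1659 CPM at E120, where the mural-like cluster had 1691 CPM (1552 to 1840) and mast-like cells 558 CPM. Among the 9 epithelial-like clusters of E120, TIMP1 ranged from 11.7 to 446.5 CPM, with the highest value in the SPP1, KLK7 and KRT17 cluster, followed by 237 CPM in the CNFN cluster that carried MMP1. TIMP2 had another order. At E60 it was at 907 CPM (882 to 932) in the SMOC2 cluster and 716 CPM in the class like tendon or cartilage. At E120 it was at 590 CPM in the papilla-led cluster and, among epithelial-like clusters, at 336 CPM (322 to 349) in the 297 cells led by GPRC5D and KRTAP11-1, a keratin-associated protein gene, with a median of 5.64 CPM over the 9 clusters. The CNFN cluster had 5.64 CPM of TIMP2, and the mast-like cells 16.3 CPM. In the E120 epithelium, clusters high in TIMP1 were thus not those highest in TIMP2, apart from the SPP1, KLK7 and KRT17 cluster, which had 184 CPM of TIMP2.

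Dermal-like cells could be compared between E60 and E90. The E60 side consisted of 6 clusters (led by RCAN2, DKK1, SMOC2, CENPH, CENPF and TNNI1) and the E90 side of 1 cluster led by BMP3 and SPON1 with 498 of the 502 cells, so different clusters stand behind the 2 stages. Of the 49 genes, 21 entered, 13 were higher at E90 (34.5% of all genes tested were) and 2 lower (5.59% of all genes). Their median log2 ratio was 1.64 beside 0.48 for all genes, and 14 of the 21 reached 5 CPM on both sides. The epithelial marker list summed to 0.648 CPM in the E60 and to 932 CPM in the E90 dermal-like cells, the dermal list to 17370 and 9554 CPM and the papilla list to 207 and 1592 CPM, and the part of these differences in the result was not tested.

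Set beside the haemoglobin-led cells, 8 of the 13 were at least 2 times as high in E90 dermal-like cells as in those cells, with intervals that did not overlap: ADAMTS5, ADAMTS9, ADAMTS12, ADAMTS18, MMP14, MMP16, ADAM12 and ADAM33. The 13 had been called for being high in these same dermal-like cells, and the share of all genes that pass this cut was not taken. The count of 8 is therefore no support for the calls. MMP16 had 0 counts in 5659 cells of E60 and 38.2 CPM at E90, 669-fold the limit of 3 counts at E60. ADAMTS18 was at 0.0762 CPM (4 counts) and 53.7 CPM, 705-fold (270 to 2619) higher, and ADAMTS12 at 0.229 and 17.5 CPM, a log2 ratio of 3.91. ADAM33 was 6.37-fold higher (5.998 to 38.2 CPM) and MMP14 5.58-fold (5.20 to 29.0 CPM). The call of ADAM12 was weak, with a log2 ratio of 1.01 that became 0.16 when scaled by the median of ratios and 0.62 when each cell's class was taken from its own markers. The other 5, ADAM9, ADAM10, ADAM17, ADAMTS15 and ADAMTS19, were not separated from the haemoglobin-led cells.

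The 2 that were lower were ADAMTS1, at 458 and 207 CPM, and ADAMTS4, at 140 and 42.8 CPM, with log2 ratios of -1.14 and -1.69. The inhibitors stayed within 2-fold, TIMP1 at 563 and 369 CPM and TIMP2 at 426 and 603 CPM. MMP2 at 761 and 388 CPM was also within it, at a log2 ratio of -0.97. Scaled by the median of ratios, the count became 9 higher and 5 lower. The share of all genes called under that scaling is not given, so these counts are not set against it. The direction of TIMP2 turned with it, from a log2 ratio of 0.50 to -0.38, and MMP2 and TIMP1 then passed 2-fold, at -1.85 and -1.49.

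**Figure D4:**
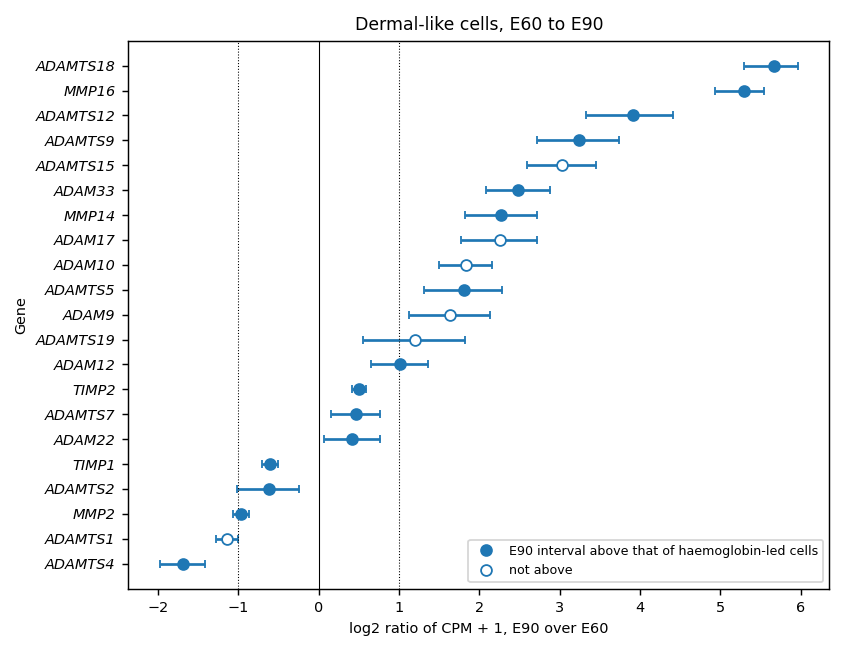
Log2 ratio of CPM + 1 in dermal-like cells, E90 over E60, of the 21 members that entered, with 95% counting intervals; filled points are members whose E90 interval lay above that of the haemoglobin-led E90 cells, and dotted lines mark 2-fold. ADAMTS18 and MMP16 lie furthest to the right (5.67 and 5.29) and ADAMTS4 furthest to the left (-1.69).

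The 212 dermal-like cells of E120, of which 205 belonged to the papilla-led cluster, are given beside these as values only, since they were dissected differently. Papilla markers summed to 4244 CPM in them, with CORIN and PROM1 at 0, and TWIST2 of the dermal list was also at 0. They had 240 CPM of MMP2, 605 CPM of TIMP2, 649 CPM of TIMP1, 366 CPM of ADAMTS4 (334 to 400) and 79.6 CPM of ADAMTS1. MMP16 was at 14.4 CPM and ADAMTS12 at 45.5 CPM, while ADAMTS18, ADAM22 and ADAM33 had no counts, each allowing up to 2.27 CPM by the limit of 3 counts.

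Epithelial-like cells could be compared between E90 and E120. The E90 side was held mainly by the KRT85 and LHX2 cluster (1418 cells) and the KRT10 and LYPD2 cluster (525 cells), and the E120 side by 9 other clusters of the follicle. Of the 49 genes, 11 entered, of which MMP1 was higher (7.77% of all genes tested were), at 5.42 and 50.9 CPM, 9.40-fold (7.17 to 12.6). Lower were 7 (25.2% of all genes): MMP2 (88.8 to 1.27 CPM), MMP7 (29.5 to 0.159 CPM), ADAMTS1 (211 to 21.1 CPM), ADAMTS4 (12.7 to 1.495 CPM), ADAMTS7 (11.7 to 1.27 CPM), TIMP1 (216 to 80.1 CPM) and TIMP2 (140 to 43.6 CPM). The TIMP1 call was lost with scaling by the median of ratios, at a log2 ratio of -0.81, and those of ADAMTS4 and ADAMTS7 with a pseudocount of 10 CPM, at -0.98 and -0.94. The median log2 ratio of the 11 was -1.66 beside -0.32 for all genes, and 7 of them reached 5 CPM on both sides. For none of the 7 lower genes did the E90 interval of the epithelial-like class lie above that of the haemoglobin-led cells. MMP7, ADAMTS1, TIMP1 and ADAMTS7 were above by level but with overlapping intervals. The haemoglobin-led cells had 21.5, 191, 204 and 11.4 CPM of these 4. MMP2, TIMP2 and ADAMTS4 were lower in the epithelial-like class than in the haemoglobin-led cells, which had 153, 234 and 20.2 CPM. Whether the E90 levels of the 7 genes are of epithelial cells was not tested. By cluster, MMP7 (in 2 clusters) and ADAMTS1 (in the KRT85 and LHX2 cluster) were above the haemoglobin-led cells, as described above. Dermal markers moved with these genes, at a summed 1718 CPM in the E90 and 413 CPM in the E120 epithelial-like cells, and their part in the result was not tested.

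Endothelial-like cells could be compared between E60 (136 cells) and E120 (363 cells), where 16 members entered, 6 were higher (16.2% of all genes tested were) and 3 lower (8.07% of all genes), with a median log2 ratio of 0.55 beside 0.12. Different clusters stand behind the stages here too: 344 of the E120 cells formed a cluster led by PLVAP and SPARCL1 with no E60 cell, and the other 19 fell in the main E60 cluster, led by PLVAP, DEPP1 and CD36. ADAMTS1 was at 177 CPM at E60 and 856 CPM at E120, 4.85-fold (4.36 to 5.40) higher. ADAMTS9 was at 17.9 and 47.3 CPM and ADAM17 at 10.9 and 32.1 CPM, 2.64-fold and 2.94-fold higher. ADAM9, ADAM19 and MMP14 were also called, from 7 counts each at E60. MMP2 (305 and 173 CPM), TIMP1 (463 and 297 CPM), ADAM10 (51.6 and 75.4 CPM) and ADAMTS4 (124 and 187 CPM) stayed within 2-fold. Dermal markers summed to 2053 CPM in the E60 and 152 CPM in the E120 cells, and haemoglobin and other erythroid genes to 2240 and 432 CPM; their part in the result was not tested.

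The 3 lower genes were TIMP2 (291 and 21.7 CPM), ADAMTS12 (21.9 CPM and 0 counts, 20.2-fold the limit of 3 counts) and ADAMTS7 (52.5 and 25.3 CPM). ADAMTS7 had a log2 ratio of -1.03 that was within 2-fold under 5 of the alternatives (-0.94 to -0.76). Most E60 counts of the first 2 came from a small group of cells. The E60 side held 115 cells led by PLVAP, DEPP1 and CD36 and 21 cells led by the lymphatic markers CCL21, LYVE1 and FLT4, whose lymphatic marker list summed to 26430 CPM against 50.4 CPM in the others. In the 21 lymphatic-like cells TIMP2 was at 1637 CPM (1505 to 1778) and ADAMTS12 at 131 CPM (95.4 to 175), against 52.5 CPM (42.8 to 63.7) and 2.57 CPM in the other 115. TIMP1 was at 771 CPM (681 to 869) in the lymphatic-like cells and 408 CPM (380 to 438) in the others, whereas MMP2 was at 177 CPM (136 to 228) and 327 CPM (302 to 354). The E120 cells had 91.0 CPM of lymphatic markers, with PROX1 at 0. Without the 21 cells the TIMP2 log2 ratio was -1.24 in place of -3.69, ADAMTS12 no longer entered, and the counts were 6 higher and 2 lower, while the log2 ratio of ADAMTS1 was 2.19 in place of 2.27.

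Of 48 related genes listed for these pathways, 43 are in the table. In the whole libraries 6 of 24 that entered were higher and 7 lower from E60 to E90, beside 21.1% and 7.36% of all genes. From E90 to E120, 0 of 20 were higher and 13 lower (8.97% and 23.1% of all genes), and from E60 to E120, 3 of 22 were higher and 14 lower (18.4% and 19.9%). Among ligands that the sheddases release, AREG was at 0.0922, 113 and 30.7 CPM and HBEGF at 2.01, 26.0 and 13.3 CPM at the 3 stages, both highest at E90 as ADAM10 and ADAM17 were. The plasminogen activator PLAU was at 12.0, 51.8 and 35.1 CPM. The proprotein convertase PCSK5, of the family that processes protease precursors, was at 62.0, 23.0 and 3.72 CPM, and the procollagen C-proteinase enhancer PCOLCE at 350, 79.9 and 19.3 CPM. The tetraspanins TSPAN15 and TSPAN5, which partner ADAM10, were at 45.4, 13.9 and 4.04 CPM and at 37.5, 16.4 and 8.72 CPM, an order unlike that of ADAM10 itself. The matricellular THBS1 and THBS2 were at 150, 153 and 9.25 CPM and at 51.6, 72.4 and 4.11 CPM, and ADAMTSL1, which lacks the protease domain, at 27.9, 23.0 and 0.257 CPM. The proteoglycan VCAN, a substrate of several ADAMTS proteases, was at 266, 282 and 13.1 CPM and BGN at 147, 15.3 and 17.5 CPM. In dermal-like cells VCAN was at 289 CPM at E60 and 541 CPM at E90, where ADAMTS1 and ADAMTS4 were lower and ADAMTS5 and ADAMTS9 higher. In endothelial-like cells HBEGF was at 8.31 CPM at E60 and 173 CPM at E120 and PLAU at 55.5 and 302 CPM, beside the higher ADAM17 and ADAMTS1.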

How the data were processed

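Cells came from 10x 3′ v3 libraries, processed with Cell Ranger 3.0.2 per the submitters' processing notes; the genome build and annotation are not given in the sources used here. The deposited values are natural logs of 1 plus UMIs scaled to 10000 per cell by the authors, as read from the values: inverting them gave whole counts for 100% of non-zero values (tolerance 0.01). The table holds 20676 cells, beside 19705 stated by the submitters with no filter named. Counts were summed per library, class or cluster and given as CPM; ratios are log2 of CPM + 1. With 1 library per stage, no test was run. UMIs come from 3′ ends and say little of how genes rank, so levels are compared within a gene; sums over a family are compared only between libraries, and a gene with more UMIs weighs more in them.

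Clusters (2000 variable genes without members or related genes, 30 components, 20 neighbours, Leiden resolution 1; leidenalg 0.10.2, igraph 0.11.9, scikit-learn 1.9.0, scipy 1.17.1, numpy 2.4.6, Python 3.11.15) were named from listed markers. The naming score was set after seeing the data: a marker counted when found in at least 10% of a cluster's cells and at 2 times the median cluster, and a class needed at least 3. Tendon or cartilage served only where its own marker led, and clusters led by another class's markers, haemoglobin or mitochondrial genes were not given a skin class. Doublets were not removed, except as an alternative (the 6% with the highest scores). Members and lists, and the rule for members described singly, were chosen with earlier results of these data known; related genes are named when past 4-fold between whole libraries with 20 CPM in the higher. Shares of cells are at full depth. The counting of calls was tested on simulated data. All 49 symbols matched RefSeq gene names; no sequence is printed, and the division of ADAMs by their catalytic motif, planned from protein sequence, was not made.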

Additional observations from a re-analysis of the deposited data

How the results depend on the processing

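Of 128 counts of called members recomputed under other settings, 107 were within 1.5 times of the reported count. Recomputed counts, here and in the sections above, stand without the share of all genes called under the same setting. They show only how the counts of members moved, not whether members moved more than other genes. The 21 others were as follows. With a pseudocount of 10 CPM, the 7 genes higher from E60 to E90 became 3 and the 6 higher in endothelial-like cells became 3; with 0.1 CPM, the 1 higher from E60 to E120 became 2. With a filter of 20 CPM, the number higher from E60 to E90 became 1, lower from E90 to E120 4, lower from E60 to E120 5, higher in dermal-like cells 4, lower in epithelial-like cells 4 and higher in endothelial-like cells 3, since fewer genes entered. With no filter, higher from E60 to E90 became 11, higher and lower from E60 to E120 2 and 19, lower in dermal-like cells 4, lower in epithelial-like cells 20 and lower in endothelial-like cells 11. Scaling by the median of ratios gave 8 lower from E60 to E90 and 5 lower in dermal-like cells. Keeping cells of 1000 or more genes and no more than 10% mitochondrial counts gave 11 higher from E60 to E90. Weighting every cell the same, or thinning each cell to 2000 UMIs, gave 3 higher from E60 to E120 each. Classes taken from each cell's own markers gave 5 lower in endothelial-like cells. Leaving out the lymphatic cluster was chosen after seeing the data. Of 478 recomputed log2 ratios of members called in the reported comparison, 0 changed sign and 24 were no longer past 2-fold; the cause was not tested. Not all of the 24 are named in the text. Among those not given above, some fell under a pseudocount of 10 CPM (ADAMTS9 at 0.65 from E60 to E90 and -0.72 from E90 to E120, ADAMTS2 at -0.87 from E90 to E120). Another fell under scaling by the median of ratios (ADAM10 at 0.99 in dermal-like cells). No paired analysis was possible because each stage is 1 library with no replicate. Levels under 3 counts, and classes of few cells such as E90 endothelial-like cells (72), are limited by depth.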
